A study of Mus musculus with 25 samples.

Results

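A pair of neighbouring microRNA hairpins of the imprinted Gnas region, mir-296 and mir-298, was followed in mouse brain across adult life. They were the rows of the deposited count table named mmu-mir-296 and mmu-mir-298, 2 of 1193 miRNA precursors, and both were among the 425 precursors with enough reads to be tested. The 25 libraries of short RNAs came from male C57BL/6 mice, an inbred strain in wide use, whose brain hemispheres were taken at 2, 9, 15, 24 or 30 months of age, with 5 animals per age and no treatment named in the labels. mir-296 was chosen by its lower level at 30 than at 2 months, with earlier results of these data known, and mir-298 as its neighbour in the genome. For the pair that comparison is therefore given as a description with no p-value, and p-values are given only for comparisons among other ages and for measures it did not use.

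A miRNA precursor is a folded RNA cut from a longer transcript, from which the mature arms are cut and loaded into the silencing complex. The loaded arm finds target mRNAs mainly through its seed, bases 2 to 8. The Gnas locus is a textbook case of genomic imprinting: it gives rise to the stimulatory G protein alpha subunit from one set of promoters and to parent-specific transcripts from others. One of these is the antisense RNA Nespas, made from the paternal chromosome, and both hairpins have been described as paternally expressed products of the same strand. miR-298 is known as a repressor of Bace1 and App, the protease and the precursor protein of amyloid beta. miR-296 is known from endothelial cells, where it promotes angiogenesis, and from embryonic stem cells, where it represses Nanog.

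In the GRCm38.p6 build mir-296 lies at chr2:174267047-174267125 and mir-298 at chr2:174267504-174267585, both on the minus strand and separated by 378 bases. The GENCODE M21 annotation places no gene other than these miRNAs over that interval. The annotated 3′ end of Nespas, on the same strand, begins 13651 bases beyond mir-298, and Gnas, on the plus strand, begins 16734 bases beyond it. The nearest other tested precursor, mir-1a-1, lies 6.12 Mb away. The hairpins from RefSeq are shown 5′ to 3′, because the counts join both arms of each, with the mature arms in capitals:
mmu-mir-296: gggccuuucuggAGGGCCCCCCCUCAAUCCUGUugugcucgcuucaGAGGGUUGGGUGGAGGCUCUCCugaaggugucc
mmu-mir-298: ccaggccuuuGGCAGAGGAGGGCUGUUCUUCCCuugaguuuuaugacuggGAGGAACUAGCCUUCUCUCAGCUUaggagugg

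The mature arms are shown with the seed in capitals, since the seed decides which mRNAs each arm can recognise:
miR-296-5p: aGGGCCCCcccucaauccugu
miR-296-3p: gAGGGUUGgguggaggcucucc
miR-298-5p: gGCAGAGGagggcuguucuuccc
miR-298-3p: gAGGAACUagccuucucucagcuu

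The 4 seeds all differed, and none was shared with another of the 1738 mature mouse miRNAs in the RefSeq table. No mature arm occurred whole in another of the 1005 hairpins there, so no other listed locus matched either hairpin's arms whole. The mir-296 hairpin was rich in G and C, at 63.3%, above 89.7% of those hairpins, against 53.7% for mir-298, above 59.2% of them. Because arms were counted together, the files do not say which arm of either hairpin the reads came from.

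Library totals ranged from 3.78 to 9.52 M (mega-reads). mir-296 had between 69 and 319 reads per library and mir-298 between 1282 and 5229. Counting error alone gives a coefficient of variation of 5.60% to 12.04% for a mir-296 count and 1.38% to 2.79% for a mir-298 count. These figures cover counting error only, since reads amplified by PCR without molecular identifiers are not independent molecules. The unit of level is CPM, a count divided by the library's size in mega-reads, where that size was first corrected by a TMM (trimmed mean of M values) factor. The table sums reads from all cells of a hemisphere, so fewer cells of a type and less of the RNA per cell cannot be told apart. Neuronal markers marked the tissue as brain, with a summed level of the 8 miR-124, miR-9 and miR-128 precursors between 58847 and 79793 CPM in every library. Several of these precursors are copies, so the sum may hold a read more than once. Averaged over the 4 or 5 libraries of a sequencing lane, deviations from the age mean ran from -0.15 (lane 7) to 0.17 (lane 5) in log2 CPM for mir-296 and from -0.22 (lane 7) to 0.12 (lane 3) for mir-298.

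The level of mir-296 was highest in young adults. At 2 months it was 59.04, 59.8, 55.8, 54.8 and 49.1 CPM in the 5 animals, a mean of 55.7 ± 4.24 CPM (SD, n = 5). At 9 months the animals had 39.5, 28.5, 24.4, 33.0 and 24.3 CPM, a mean of 29.9 ± 6.43 CPM (SD, n = 5). Every 9-month value lay below every 2-month value, as was the case for 4.24% of the 425 precursors, and the log2 fold change was -0.90 ± 0.16 (SE). The 9-month mean thus lay nearer to that of the oldest animals than to that of young adults. This is a description, because the 2-month libraries took part in the choice of mir-296.

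At 15 months mir-296 stood at 23.4, 13.9, 25.4, 27.2 and 29.7 CPM, a mean of 23.9 ± 6.06 CPM (SD, n = 5). The 24-month animals had 32.9, 33.7, 32.2, 36.8 and 26.9 CPM, a mean of 32.5 ± 3.57 CPM (SD, n = 5). The oldest animals, at 30 months, had 26.6, 27.7, 16.9, 26.6 and 23.7 CPM, a mean of 24.3 ± 4.40 CPM (SD, n = 5). All 15 values at 15, 24 and 30 months lay below all 5 values at 2 months, as for 4.47% of the 425 precursors. That too is a description, since it uses the 2- and 30-month libraries of the choice. From high to low the order of the means was 2, 24, 9, 30 and 15 months, and only the step from 2 to 24 months separated neighbours whose values did not overlap. The coefficient of variation between animals was 7.62% at 2 months, close to the counting error, and 25.3% at 15 months.

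mir-298 was the more heavily sequenced of the pair, and its age means ran in a different order. At 2 months the 5 animals had 500.5, 624, 510.02, 528 and 401 CPM, a mean of 513 ± 79.5 CPM (SD, n = 5). At 9 months the values were 418, 366, 317, 477 and 359 CPM, with a mean of 387 ± 61.9 CPM (SD, n = 5). These ranges overlapped, and the log2 fold change was -0.41 ± 0.14 (SE). At 15 months mir-298 was at its lowest, with 326, 272, 389, 338 and 386 CPM and a mean of 342 ± 48.02 CPM (SD, n = 5).

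In the older animals the mean of mir-298 lay near that of young adults. The 24-month values were 454, 476, 437, 589 and 484 CPM, with a mean of 488 ± 59.4 CPM (SD, n = 5). The 30-month values were 443, 616, 354, 496 and 554 CPM, with a mean of 492 ± 101 CPM (SD, n = 5). The means ran in the order 2, 30, 24, 9 and 15 months. Neighbours in that order all overlapped.

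**Figure D1:**
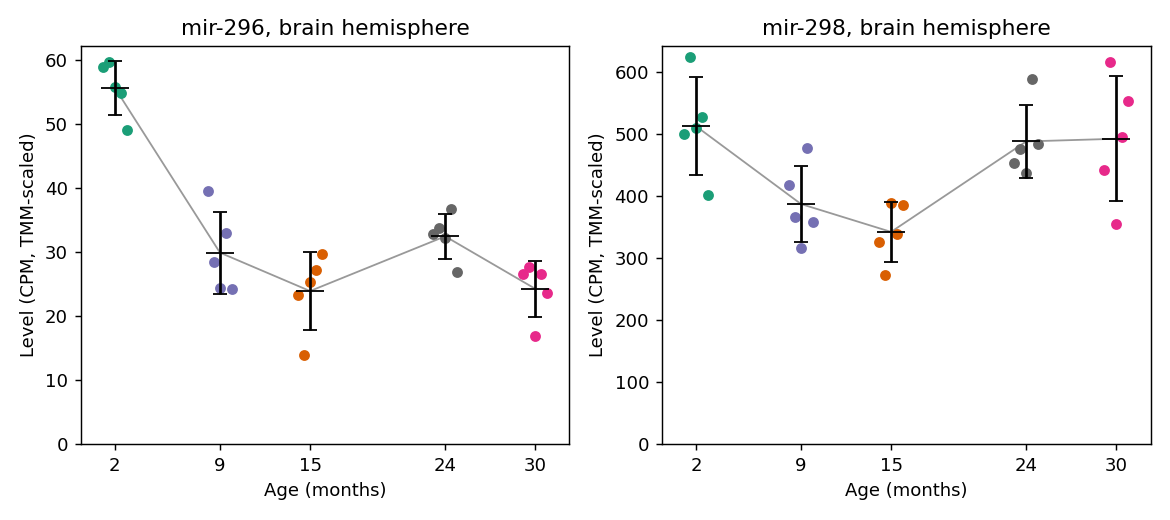
Level of mir-296 (left) and mir-298 (right) in CPM, scaled by TMM, against age in months. Points are the 25 libraries, spread sideways within each age for visibility only. Bars are the mean and SD of 5 animals, joined by a grey line. The mean of mir-296 is 55.7 CPM at 2 and 29.9 CPM at 9 months, while mir-298 is lowest at 15 months, at 342 CPM, and stands at 488 and 492 CPM at 24 and 30 months.

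Between 2 and 30 months the hairpins parted. mir-296 had a log2 fold change of -1.20 ± 0.16 (SE, n = 5 per age), a 2.29-fold lower level at 30 months, with no overlap of the ages (11.1% of the 425 precursors were lower without overlap). mir-298 had a log2 fold change of -0.06 ± 0.14 (SE), beside a median of 0.05 over all precursors tested. With edgeR 36.9% of precursors were called in this comparison, and nothing is read from that share here because the comparison chose the pair. Of the 425 precursors 5 had a lower fold change than mir-296 and 9 a larger absolute one. Among precursors averaging 10 CPM or more, none had a lower fold change than mir-296. Within the 4 lanes that held both ages the mir-296 difference was -1.30, -1.06, -0.97 and -1.51 in log2 units, in lanes 3, 5, 6 and 7. No lane held more than a single library of an age, so here and below each within-lane difference sets a single animal beside another. The mir-298 difference in the same lanes was 0.15, -0.20, 0.22 and -0.18, on both sides of 0.

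The pair was tested among 9, 15 and 24 months, whose 15 libraries are not part of the comparison of 2 with 30 months, although all 25 libraries entered the fit and its estimate of the spread. Neither hairpin passed edgeR's quasi-likelihood test after adjustment over 425 precursors. For 15 against 9 months mir-296 had a log2 fold change of -0.31 ± 0.16 (SE, n = 5 per age, edgeR adjusted p = 0.836) and mir-298 one of -0.18 ± 0.14 (edgeR adjusted p = 0.998). In this comparison edgeR called 0 precursors (0%), with 27 at an unadjusted p under 0.05, and DESeq2 called 2. Within lanes 3, 4, 5 and 8 the mir-296 difference was -0.16, 0.15, -0.15 and -1.47 and that of mir-298 was 0.09, 0.10, -0.31 and -0.62, so lane 8, with 15-month replicate 2, gave the widest gap for both. Without that library the mir-296 fold change was -0.17.

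For 24 against 15 months both hairpins lay on the higher side. mir-298 had a log2 fold change of 0.51 ± 0.14 (SE, n = 5 per age, edgeR unadjusted p = 0.00121, adjusted p = 0.221) and mir-296 one of 0.44 ± 0.16 (edgeR unadjusted p = 0.0135, adjusted p = 0.250). Every 24-month mir-298 value lay above every 15-month value, as for 0.941% of the 425 precursors, whereas the mir-296 values overlapped. edgeR called 0.235% of precursors here, which was 1 precursor, and DESeq2 called 2, of which mir-298 was 1 (0.50 ± 0.13, DESeq2 adjusted p = 0.0417). With only the libraries of these 2 ages in the edgeR fit, mir-298 gave 0.50 ± 0.11 (edgeR adjusted p = 0.0778). Only 7 of the other precursors had a higher fold change than mir-298 and 18 a higher one than mir-296. Within lanes 3, 4, 7 and 8 mir-298 was higher at 24 months by 0.60, 0.52, 0.55 and 0.68 in log2 units. The mir-296 difference there was 0.52, -0.02, 0.52 and 1.18, the last again with 15-month replicate 2, without which its fold change was 0.29.

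A straight line through 9, 15 and 24 months gave a slope of 0.14 ± 0.13 log2 units per 12 months for mir-296 (SE, edgeR adjusted p = 0.636) and 0.30 ± 0.11 for mir-298 (edgeR adjusted p = 0.247). Of all precursors 0.706% were called for this slope. From 24 to 30 months, given without a test because the 30-month libraries took part in the choice, mir-296 had a log2 fold change of -0.42 ± 0.16 (SE) and mir-298 one of 0.01 ± 0.14.

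**Figure D2:**
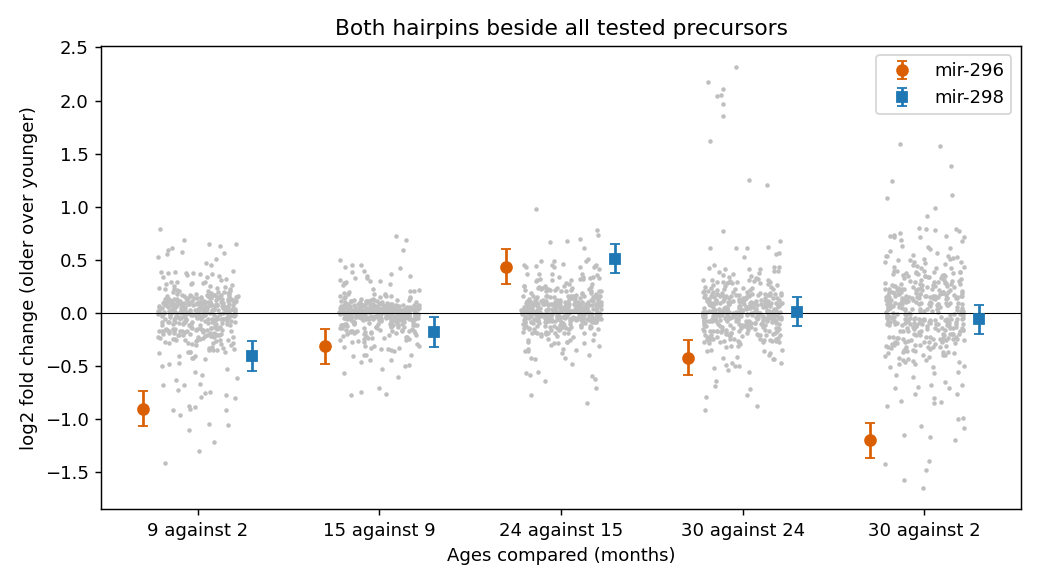
Log2 fold change, older over younger, for each pair of ages compared. Grey dots are the 425 tested precursors, spread sideways for visibility; the orange circle is mir-296 and the blue square mir-298, with bars for the SE of the edgeR fit. mir-296 lies at -0.90 for 9 against 2 months and at -1.20 for 30 against 2 months, near the lower edge of the grey dots; for 24 against 15 months both hairpins lie near the upper edge, at 0.44 and 0.51.

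The ratio of the hairpins within a library needs no scaling between libraries. At 2 months there were 8.48, 10.4, 9.14, 9.63 and 8.17 reads of mir-298 for each read of mir-296. The numbers were 10.6, 12.8, 13.0, 14.5 and 14.7 at 9 months, all above those at 2 months. At 15 months they were 13.9, 19.5, 15.3, 12.4 and 13.0, and at 24 months 13.8, 14.1, 13.6, 16.02 and 17.97. At 30 months they reached 16.7, 22.2, 20.98, 18.7 and 23.3. The means were 9.17, 13.1, 14.8, 15.1 and 20.4 in order of age. These are ratios of reads and not of molecules, since ligation efficiency differs between small RNA sequences and lengths, so it is their change with age that can be compared.

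On the log2 scale the ratio of mir-296 to mir-298 differed by -1.14 ± 0.11 (SE, n = 5 per age) between 2 and 30 months, with no overlap between the ages. From 2 to 9 months the difference was -0.51 ± 0.11, and from 24 to 30 months, where the ages overlapped, it was -0.43 ± 0.12. These differences use libraries that took part in the choice of mir-296, so they are descriptions. The intermediate steps, both with overlap, were -0.17 ± 0.14 and -0.04 ± 0.14. Within lanes the difference between 2 and 30 months was -1.46, -0.86, -1.20 and -1.36 in lanes 3, 5, 6 and 7. In the 15 libraries of 9, 15 and 24 months the slope of the log2 ratio was -0.16 per 12 months and did not pass an exact permutation test (two-sided p = 0.160 over 756756 assignments of libraries to ages).

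**Figure D3:**
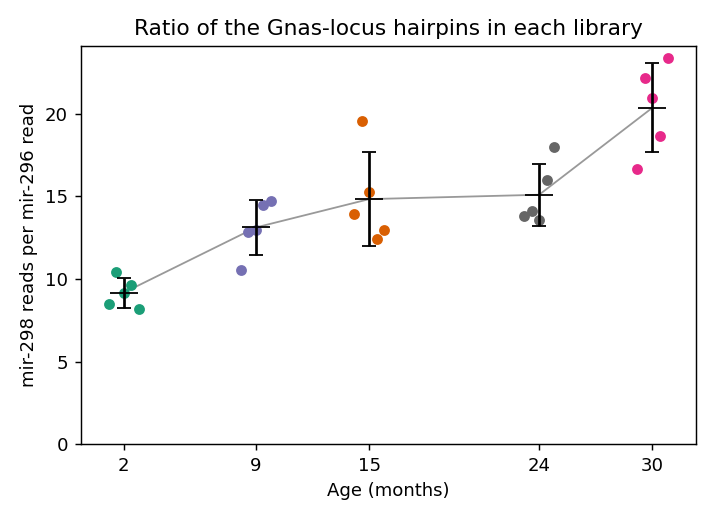
Reads of mir-298 for each read of mir-296 in the same library, against age in months. Points are the 25 libraries, and bars are the mean and SD of 5 animals. The mean is 9.17 at 2 months, 13.1 to 15.1 between 9 and 24 months and 20.4 at 30 months, and the 2-month libraries lie below all others.

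Hairpins that lie close together on a strand can come from 1 primary transcript, so the parting of this pair was set beside other close pairs, a comparison chosen after its values were seen. Tested hairpins with a known position and a mean of at least 10 CPM gave 57 pairs of neighbours on a strand, at most 1000 bases apart. Hairpins of lower level were set aside before pairing, so some may lie between the 2 of a pair. The fold changes of mir-296 and mir-298 between 2 and 30 months differed by 1.14 log2 units, the largest difference of the 57. The other 56 pairs had a median difference of 0.18. The next largest were mir-376c and mir-376b of the Dlk1-Dio3 region, at 0.82, and mir-99b and let-7e, at 0.50. This is a description, since mir-296 was chosen for its fold change.

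**Figure D4:**
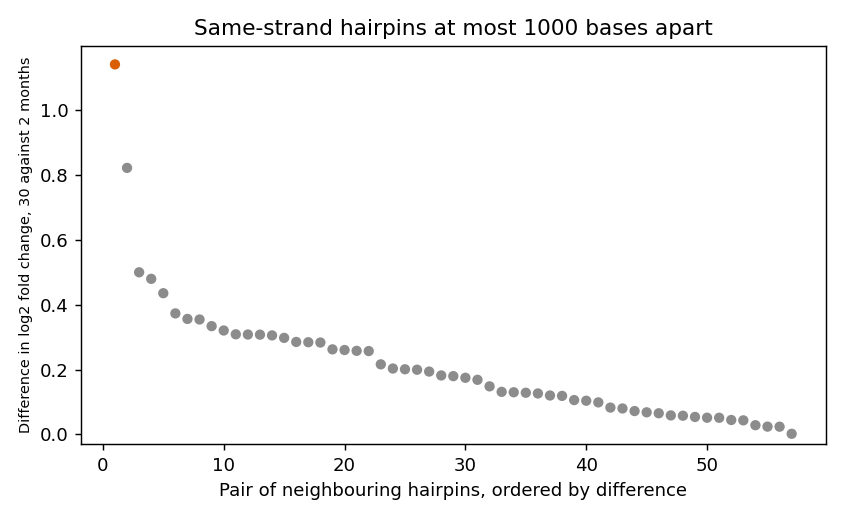
Absolute difference in log2 fold change, 30 against 2 months, between the members of each of 57 pairs of same-strand hairpins at most 1000 bases apart, ordered from largest to smallest. The orange point is the pair of mir-296 and mir-298, at 1.14; the grey points are the other 56 pairs, with a highest value of 0.82.

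Between animals of the same age, however, the hairpins varied together. Deviations of log2 CPM from the age mean, a measure the choice of the pair did not use, had a Pearson r of 0.73 over 25 libraries (permutation within ages, two-sided p = 0.00021) and a Spearman rho of 0.67 (permutation p = 0.00096). This was the only pair of precursors tested in this way. Without the 2 libraries whose mir-296 deviation from the age mean was farthest from the median deviation, 15-month replicate 2 and 30-month replicate 3, r was 0.61 (permutation p = 0.00478) and rho 0.58 (permutation p = 0.0111). With deviations taken from lane and age means r was 0.70 (permutation p = 0.00018) and rho 0.74 (permutation p = 0.00019). In the 15 libraries of 9, 15 and 24 months r was 0.76 (permutation p = 0.00428) and rho 0.75 (permutation p = 0.00448). Within single ages r was 0.87, 0.77, 0.90, 0.45 and 0.79 in order of age, each over only 5 animals. 15-month replicate 2 was low for both hairpins, at 13.9 CPM of mir-296 and 272 CPM of mir-298, and 30-month replicate 3 was low for both as well, at 16.9 and 354 CPM.

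**Figure D5:**
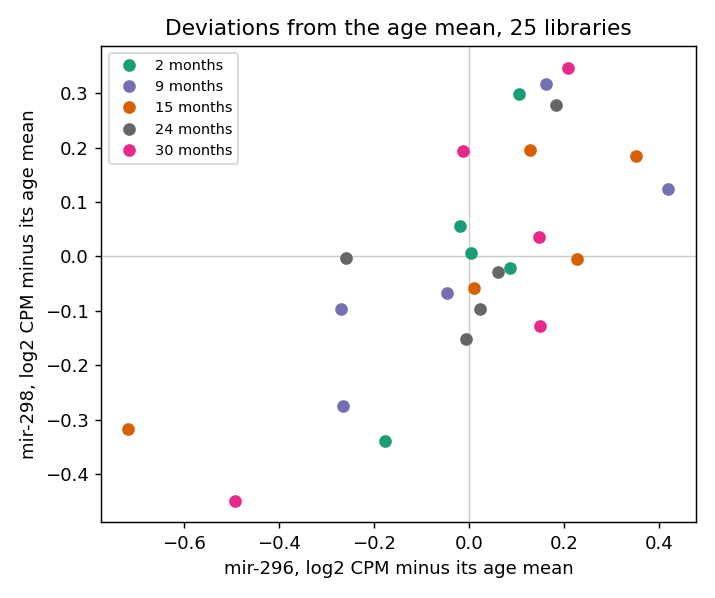
Deviation of each library from the mean of its age in log2 CPM, mir-296 on the horizontal and mir-298 on the vertical axis, coloured by age. Libraries low in one hairpin are mostly low in the other (r = 0.73 over 25 libraries), and the farthest point on the left is 15-month replicate 2.

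The same deviations were compared with those of all other precursors averaging 10 CPM or more, as a description. The precursor most like mir-296 was mir-298, and the one most like mir-298 was mir-296. After it came mir-653 for both, with r = 0.60 against mir-296 and 0.62 against mir-298. For mir-296 these were followed by mir-32 (0.58), mir-539 (0.53) and mir-188 (0.52), and for mir-298 by mir-543 (0.57), mir-495 (0.50) and mir-6540 (0.49). mir-539, mir-543 and mir-495 belong to the imprinted Dlk1-Dio3 region. The points share libraries and depth, and the median r over all precursors was -0.02 for mir-296 and 0.01 for mir-298.

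With the age differences left in, over the same 25 libraries, the order changed. mir-296 was then most like mir-6944 (r = 0.76), mir-6540 (0.75), mir-3475 (0.73), mir-1983 (0.72) and the activity-regulated mir-212 (0.71), and mir-298 came 15th at 0.62. These 5 had log2 fold changes from -0.32 to -1.15 between 2 and 30 months. mir-298 was most like mir-872 (0.69), then mir-296 (0.62), mir-370 (0.59) and mir-412 (0.58) of the Dlk1-Dio3 region and mir-187 (0.56).

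Other imprinted miRNAs were lower at 30 months in part. Outside large clusters mir-335, from an intron of the paternally expressed Mest, stood at 1377 ± 128 CPM at 2 months and fell to 1123 ± 88.3 CPM at 30 months (SD, n = 5). Its log2 fold change was -0.29 ± 0.07 (SE, edgeR adjusted p = 0.0023). mir-483, from Igf2, had a log2 fold change of -0.17 ± 0.20 (edgeR adjusted p = 0.524), and mir-675, from H19, had at most 1 read in a library and was not tested. In the Dlk1-Dio3 cluster, with 51 precursors tested, there were 19 falls and 3 rises and a median of -0.14, beside 17.9% called lower and 19.1% called higher among all precursors. Relative log expression (RLE) scaling gave 23 falls and 1 rise, upper-quartile scaling 24 and 0, and library totals 21 and 1. Among members of these lists averaging 10 CPM or more, none had a fold change as low as that of mir-296. The lowest of them was that of mir-376c, from 58.8 ± 4.57 to 32.9 ± 1.48 CPM (-0.84 ± 0.10, edgeR adjusted p = 1.71e-06).

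miRNAs that share reported targets with miR-298 in the amyloid pathway were mostly higher at 30 months with TMM scaling. Of 12 precursors known as regulators of Bace1 or App, 9 rose and 1 fell between 2 and 30 months, with a median log2 fold change of 0.20, beside 36.9% of all precursors called. RLE scaling and library totals each gave 5 rises, upper-quartile scaling gave 2, and 1 precursor fell under each. The list holds copies of 1 mature sequence (mir-16-1 with mir-16-2, mir-29b-1 with mir-29b-2), whose reads cannot be told apart. mir-101a, a repressor of App, rose from 5993 ± 247 to 7827 ± 135 CPM (SD, n = 5; 0.39 ± 0.05, SE, edgeR adjusted p = 1.51e-06), and mir-101b by 0.33 ± 0.04 (edgeR adjusted p = 4.94e-06). mir-328, reported together with miR-298 as a repressor of Bace1, rose by 0.18 ± 0.05 (edgeR adjusted p = 0.0107). mir-153, also a repressor of App, fell by 0.20 on the log2 scale (edgeR adjusted p = 0.0213).

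Of 8 precursors known, like miR-296, from angiogenesis, 2 rose and 1 fell with TMM scaling, with a median of 0.01. Among all 425 precursors 36.9% were called, 19.1% higher and 17.9% lower, so the list lay near the general share. The counts were 2 and 2 under RLE scaling (median -0.02), 2 and 2 with library totals (median -0.01) and 1 and 2 for upper quartiles (median -0.06). These scalings called 157, 153 and 141 of all precursors. The hypoxia-induced mir-210 rose by 0.61 ± 0.09 (SE, edgeR adjusted p = 1.37e-05) and mir-132 fell by 0.34 on the log2 scale (edgeR adjusted p = 9.77e-05). The endothelial mir-126a, at 6377 ± 229 CPM at 2 and 6454 ± 329 CPM at 30 months (SD, n = 5), had a log2 fold change of 0.02 ± 0.04 (edgeR adjusted p = 0.748).

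Markers of some cell types moved with age beside the hairpins. The counts below stand beside 19.1% called higher and 17.9% called lower among all 425 precursors with TMM scaling. The summed level of the 3 oligodendrocyte precursors, all of which rose, ran from 2487 to 2913 CPM at 2 months and from 3612 to 4554 CPM at 30 months. Of the 8 neuronal precursors 2 fell (mir-128-1 and mir-128-2) and none rose, with a median log2 fold change of 0.09 and summed levels of 69180 to 79741 CPM at 2 and 62080 to 79793 CPM at 30 months. The 2 mir-128 loci carry the same mature miRNA, and the 6 miR-124 and miR-9 precursors had log2 fold changes from 0.08 to 0.10, none past the test. These 6 are also copies, with nearly equal mean levels. mir-124-1, mir-124-2 and mir-124-3 stood at 2652, 2646 and 2649 CPM, and mir-9-1, mir-9-2 and mir-9-3 at 11453.8, 11460.5 and 11439.4 CPM. The 8 neuronal precursors are thus not separate measurements, and their sum may hold a read more than once. The counts of the oligodendrocyte and neuronal lists were the same under all 4 scalings. Of 5 tested liver and muscle precursors 2 rose with TMM scaling (mir-133a-1 and mir-133a-2, copies of 1 mature miRNA) and none fell, with a median of -0.31 and summed levels of 189 to 251 CPM at 2 and 231 to 278 CPM at 30 months. The other 3 lay at -0.50 ± 0.20 (mir-1a-1), -0.36 ± 0.26 (mir-1a-2) and -0.31 ± 0.58 (mir-122), all under 10 CPM on average. RLE scaling gave 2 rises and 1 fall in this list, upper-quartile scaling 1 and 1, and library totals 2 and 0. None of the 2 endothelial, 4 blood, 2 choroid plexus and 8 epithelial precursors was called by edgeR. Over all libraries the summed level ran from 227 to 8702 CPM for the epithelial list and from 2068 to 7814 CPM for blood. It ran from 10907 to 12922 CPM for endothelium and from 5060 to 7826 CPM for choroid plexus. The epithelial median log2 fold change was 0.57, with mir-182 at 0.79 ± 0.97 (SE), so the absence of calls there does not show equal levels. No marker of these lists was at 0 in all libraries. The part of cell composition in the levels of mir-296 and mir-298 was not tested. Of the 16 other precursors with a hairpin at least as rich in G and C as mir-296 and a mean of at least 10 CPM, 6 had a fold change below 0 between 2 and 30 months, with a median of 0.09. Of all 425 tested precursors 195 had a fold change below 0, with a median of 0.05. The part of base content was not tested.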

How the data were processed

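The deposited values are raw counts from the authors, 1 whole number per precursor hairpin and library, with both arms joined; libraries were made with the TruSeq kit per the labels' protocols. Tools named in the submitters' processing notes are SAMtools 1.3.1-9, bcl2fastq 1.8.4 and Trimmomatic 0.36. No aligner, counter, build or handling of strand and multiple matches is given in the sources used here. The lane (6 in all) stands in each column name. Title numbers differ for each library, taken as separate animals; p-values measure the spread between them.

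The members, lists and tests were chosen with earlier results of these data known. Of 1193 precursors, filterByExpr kept 425. edgeR 4.0.16 (R 4.3.3) fitted 1 quasi-likelihood model with a mean per age and TMM factors; p-values were adjusted by Benjamini-Hochberg over all 425 (threshold 0.05), after a check on simulated data. SE is the log2 fold change over the square root of F. The log2 ratio used a pseudocount of 0.5 reads, log2 CPM 0.5 CPM, and permutation of correlations 100000 draws within ages (NumPy 2.4.6, SciPy 1.17.1). Alternatives used DESeq2 1.42.0, RLE, upper-quartile or no scaling, other filters, lane terms and left-out libraries. Named precursors came from the 5 most like each member, chromosome neighbours and, per list, the largest changes with at least 10 CPM. Not every precursor that met this rule is named. Outside the rule mir-122, mir-153, mir-1a-2, mir-328, mir-483 and mir-675 were added after their values were seen. Positions matched 413 and hairpin sequences 353 of the 425 tested precursors. Replicate pairs of an age differed beyond sampling noise (chi-square per degree of freedom from 19.6 to 304 over 50 pairs, precursors with at least 10 reads).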

Additional observations from a re-analysis of the deposited data

How the results depend on the processing

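The lower level of mir-296 at 30 than at 2 months (-1.20 in log2) lay between -1.26 and -1.16 under 10 other settings and between -1.28 and -1.13 without 1 library. That of mir-298 (-0.06) lay between -0.14 and 0.01, and between -0.18 and 0.00 without 1 library. Over the 15 libraries of 9, 15 and 24 months, no setting made mir-296 pass. Without 1 library its change lay between -0.41 and -0.17 for 15 against 9 months, between 0.29 and 0.53 for 24 against 15 months and, as a slope, between 0.08 and 0.21. For mir-298 the ranges were -0.24 to -0.07, 0.43 to 0.56 and 0.23 to 0.37. mir-298 passed for 24 against 15 months with DESeq2 alone (0.50, adjusted p = 0.0417; adjusted p from 0.0778 to 0.291 under the other 8 settings and from 0.142 to 0.308 without 1 library). The cause was not tested. The ratio slope lay between -0.19 and -0.10 without 1 library (exact permutation p from 0.0628 to 0.353) and was -0.13 without lane 3 (exact permutation p = 0.332). The correlation r lay between 0.65 and 0.76 without 1 library and between 0.70 and 0.76 under 5 other settings. Precursors called between 2 and 30 months numbered 157 (119 to 172 under other settings; 131 to 162 without 1 library). For the slope over 9 to 24 months 3 were called, against 1 with upper-quartile scaling or only these ages, 0 without a filter, 5 with the stricter filter, 9 with DESeq2 and 16 with lane as a covariate (0 to 8 without 1 library). For 15 against 9 months 0 were called, against 1 with library totals and 2 with DESeq2 (0 to 1 without 1 library). For 24 against 15 months 1 was called, against 2 with DESeq2 or lane as a covariate and 0 with upper-quartile scaling, without a filter or without lane 3 (0 to 1 without 1 library). No paired analysis was possible because title numbers differ for each library, so no animal links the ages. With 69 to 319 reads a library, depth limits mir-296 more than mir-298.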
